A study of Mus musculus with 4 samples.

Results

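The integrin and adhesion genes described here are 10 of the 32285 genes counted: Itga4, Itgb1, Itgb7, Itgal, Itgb2, Itgam, Itgae, Selplg, Cd44 and Icam1. They were taken by symbol from a list of adhesion molecules known for leukocyte entry into the central nervous system. Their UMIs (unique molecular identifiers, which count captured RNA molecules) were read in single CD45+ leukocytes sorted from the spinal cord of mice of the C57BL/6 strain. The mice had EAE (experimental autoimmune encephalomyelitis), in which immunisation with a myelin antigen leads T cells to attack the cord. Both groups had EAE and both received an intracranial injection on day 9: the Ctrl group received Ctrl MO and the Reg1-MO group received Reg1-MOs. Cells were collected on day 16, with 2 libraries in each group. Reg1 was taken to mean Regnase-1 (gene Zc3h12a), an RNase that degrades inflammatory mRNAs, and MO to mean a morpholino oligonucleotide, although the labels spell out neither. They also do not say whether a library holds 1 animal or several, so p-values measure the spread between these libraries only. All cells had already reached the cord, so entry itself was not measured, and the sort leaves out the vessel wall that carries many of the ligands.

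Integrins are pairs of an alpha and a beta chain that reach the cell surface only together. Integrin alpha4 pairs with beta1 (VLA-4, a receptor for VCAM1 and fibronectin) or with beta7 (a receptor for MAdCAM1), and antibody to alpha4 is used to treat multiple sclerosis because it keeps lymphocytes out of the brain. The beta2 chain makes LFA-1 with alphaL and Mac-1 with alphaM, both of which bind ICAM1, and alphaE with beta7 binds E-cadherin and marks tissue-resident T cells and some dendritic cells. PSGL-1, encoded by Selplg, binds selectins during rolling, and CD44 binds hyaluronan.

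The 4 libraries gave 26853 cells after filtering, 4953 to 8080 per library, with a median of 9458 to 11548 UMIs per cell. Ptprc, which encodes CD45, had a UMI in 94.9% to 97.1% of the cells of a library. Cells fell into 27 clusters, made without the 10 genes, of which 20 were named from marker genes and 7 (3228 cells) were left unnamed. Classes are called "-like" for that reason, and since they come from clustering the same cells, levels between classes are a description with no test. Pairs of libraries shared 10 to 75 cell barcodes, at most 0.928% of the smaller library, and leaving those cells out gave no call of the 10 genes in the 7 classes or over all cells, as with them (clusters and differences between classes were not refitted). Cell makeup differed between libraries. Neutrophil-like cells were 24.3% and 36.3% of the cells in the Ctrl libraries and 4.94% and 19.0% in the Reg1-MO libraries. Microglia-like cells were 5.84% and 0.351% against 14.5% and 19.5%. The two-sided exact permutation p was 0.33 for both, the smallest that 2 against 2 libraries can give. These shares leave out unnamed clusters 21 and 4, which both scored highest as microglia. Cluster 21 was 7.92% of the cells of Ctrl 2, and 0.252%, 0.359% and 0.464% in Ctrl 1, Reg1-MO 1 and Reg1-MO 2. Cluster 4 scored nearly as high as neutrophil (1.46 against 1.11). It was 3.88% and 5.77% of the cells in the Ctrl libraries and 1.16% and 2.625% in the Reg1-MO libraries. Over all cells Zc3h12a was at 58.8 and 72.4 CPM in the Ctrl libraries and at 58.5 and 63.6 CPM in the Reg1-MO libraries. It did not pass the test in any of 7 classes. The labels give no target site for the MO and the protein was not measured. The direction of any change in Regnase-1 is therefore not known here. CPM are the UMIs of a gene scaled to one fixed total for each library and class.

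Each alpha chain had its own set of high cells (levels in CPM within a class, mean ± SD over all 4 libraries, both groups included). Itga4 (chr2:79255426-79333123, plus strand, GRCm38) was highest in CD8 T-like cells at 525 ± 212, in NK/ILC1-like cells at 489 ± 84.5 and in plasmacytoid DC-like cells at 441 ± 104, which overlapped each other. It stood at 204 ± 40.2 in CD4 T-like cells and at 181 ± 35.9 in monocyte/macrophage-like cells, and it was lowest in microglia-like cells at 72.7 ± 29.9 and in neutrophil-like cells at 32.5 ± 4.98. The ranges of these last 3 classes over the libraries did not overlap. The microglia-like level rests on only 22 cells in Ctrl 2. The 132 migratory DC-like cells, too few for a level in every library, had 1302 to 1852 CPM of Itga4.

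Itgb1 (chr8:128685654-128733200, plus strand), the common partner chain, was highest in CD4 T-like cells at 527 ± 23.2, clear of every other class, and lowest in neutrophil-like cells at 33.5 ± 3.71. Itgb7 (chr15:102215995-102231944, minus strand) was highest in regulatory T-like cells at 519 ± 71.9, with 346 ± 45.6 in CD4 T-like cells, 111 ± 18.6 in monocyte/macrophage-like cells and 7.12 ± 4.30 in neutrophil-like cells. The regulatory T-like cells carried the other partner of Itga4 as well, with Itgb1 at 199 ± 42.6. So, per class, Itgb1 and Itgb7 had different high points within the T cells: CD4 T-like cells had more Itgb1 than regulatory T-like cells in every library, and less Itgb7 in every library. Across the 10 classes with at least 20 cells in every library, the mean log2 level of Itga4 followed that of Itgb7 with Pearson r = 0.83 and that of Itgb1 with r = 0.59, as a description over 10 classes that share the same 4 libraries.

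The leukocyte beta2 integrins divided by their alpha chains. Itgal (chr7:127296260-127335138, plus strand) was highest in CD4 T-like cells at 289 ± 5.05, then in CD8 T-like cells at 247 ± 13.8, NK/ILC1-like cells at 186 ± 15.4 and regulatory T-like cells at 139 ± 8.32, and these 4 steps did not overlap. It was lowest in conventional DC-like cells at 24.3 ± 4.08. Itgam (chr7:128062640-128118491, plus strand) was highest in neutrophil-like cells at 486 ± 23.6, microglia-like cells at 427 ± 127 and monocyte/macrophage-like cells at 294 ± 61.8, and stood at 66.7 ± 7.80 in NK/ILC1-like cells and 5.73 ± 2.54 in CD4 T-like cells. Itgb2 (chr10:77530252-77565708, plus strand), which both use, varied least of the 3: from 377 ± 63.9 in monocyte/macrophage-like cells to 49.8 ± 12.3 in B/plasma-like cells, a ratio of 7.59 against 84.8 for Itgam and 11.9 for Itgal.

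Itgae (chr11:73090583-73147446, plus strand) was high in only 2 of the 10 classes: conventional DC-like cells at 228 ± 76.2 and regulatory T-like cells at 208 ± 63.1. CD8 T-like cells, where alphaE marks resident cells in other tissues, had 26.2 ± 19.8, and neutrophil-like cells had 0.603 ± 0.362. The 91 cells of unnamed cluster 10, led by dendritic-cell genes, also held Itgae, at 68.6 to 297 CPM.

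**Figure D1:**
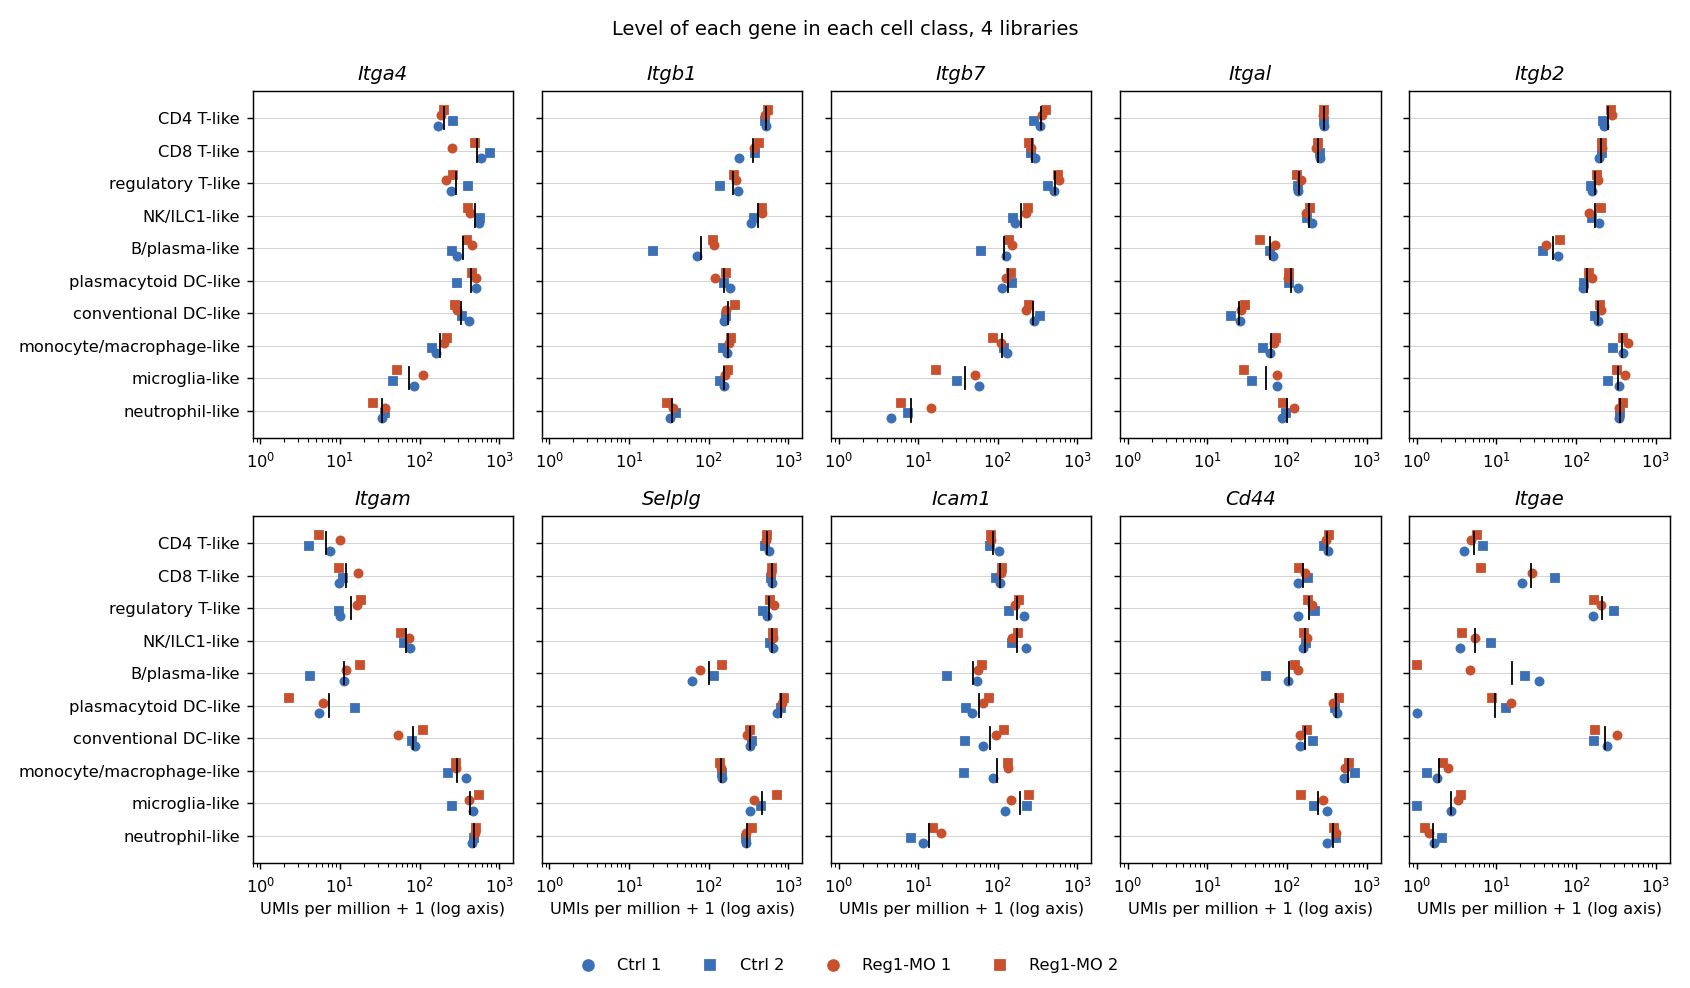
Level of each gene (CPM plus 1, log axis) in the 10 classes with at least 20 cells in every library. Points are the 4 libraries, blue for Ctrl and red for Reg1-MO, and the black line is their mean. Itgae is high in conventional DC-like and regulatory T-like cells, and Itgam in neutrophil-like, microglia-like and monocyte/macrophage-like cells.

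Of the remaining 3 genes, Cd44 and Selplg varied less between classes than Icam1. The ratio of the highest to the lowest class was 5.68 for Cd44, 8.09 for Selplg and 14.9 for Icam1. Selplg (chr5:113818536-113832644, minus strand) was highest in plasmacytoid DC-like cells at 807 ± 62.7, lay between 535 ± 26.6 and 631 ± 24.3 in the 4 T and NK classes, and was at 143 ± 4.67 in monocyte/macrophage-like cells. Cd44 (chr2:102811141-102901665, minus strand), a marker of activated and memory T cells, was highest in monocyte/macrophage-like cells at 591 ± 83.2. CD4 T-like cells, at 317 ± 18.2, had more Cd44 in every library than CD8 T-like cells, at 157 ± 22.8. Icam1 (chr9:21015985-21028817, plus strand), the ligand of LFA-1 and Mac-1, was highest in microglia-like cells at 186 ± 61.4, NK/ILC1-like cells at 174 ± 35.6 and regulatory T-like cells at 174 ± 29.8. It was lowest in neutrophil-like cells at 12.5 ± 4.78, although unnamed cluster 20, which scored as neutrophil and was led by Acod1, Cxcl3 and Cxcl2, held 247 to 1286 CPM of Icam1.

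The genes whose level over the 10 classes ran closest to each adhesion gene were taken among 5524 genes by Pearson r of mean log2 level. They were Fcgr3, Hk3 and Tlr4 for Itgam (r = 0.96 for each) and Rab11b, Kcnn4 and Gpr132 for Itgb7 (r = 0.98 for each). For Itga4 they were Gpr18, Sf3b6 and Clec2i (r = 0.95 to 0.96), for Itgb1 Abcb1b, Chmp1a and Guk1 (0.94 to 0.96), and for Icam1 Memo1, Bag1 and Eif4e2 (0.95 to 0.96). Itgb2 ran with Ccdc88b, Ilk and Card19 (0.93 to 0.94), Itgal with Crot, Mat2b and Oga (0.91 to 0.94) and Itgae with genes that included Wnk1 and Jak2 (0.88 to 0.89). The values were lowest for Selplg with Rab27a, Ubn1 and Bbc3 (0.86 to 0.90) and for Cd44 with Emp3, Gclm and Fes (0.83 to 0.86). These are the best of 5524 genes over 10 points and carry no test.

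Because an integrin needs both chains, cells with a UMI of both were counted after each cell was thinned to 2000 UMIs, which evens out depth but misses cells that hold few copies. The order of classes below holds at that depth only. Without thinning, Itga4 and Itgb1 were seen in 83.0% and 86.0% of the deeper conventional DC-like cells. In NK/ILC1-like cells they were seen in 80.1% and 77.2%. A UMI can also come from RNA outside the cell, so the shares of classes at the low end are given beside the high ones. NK/ILC1-like cells most often had both Itga4 and Itgb1, in 27.8% ± 1.55 of cells (SD, n = 4 libraries), followed by CD8 T-like cells at 24.1% ± 7.54 and CD4 T-like cells at 14.9% ± 2.38. In neutrophil-like cells, where both chains are low, the share was 0.525% ± 0.0465. Both Itga4 and Itgb7 were seen in 19.7% ± 6.82 of CD8 T-like cells and 19.4% ± 5.65 of regulatory T-like cells, against 0.211% ± 0.0812 of neutrophil-like cells. In these T cell classes a cell with Itga4 was about as likely to hold Itgb1 as a cell without it: in CD4 T-like cells 57.0% against 55.2%, and in CD8 T-like cells 45.2% against 43.1%. The alphaE and beta7 pair was seen in 18.8% ± 4.6 of regulatory T-like cells and 8.51% ± 3.25 of conventional DC-like cells, but in 1.43% ± 1.33 of CD8 T-like cells and 0.530% ± 0.187 of CD4 T-like cells. The Mac-1 chains came together in 32.3% ± 1.47 of neutrophil-like, 28.2% ± 3.75 of microglia-like and 22.0% ± 5.30 of monocyte/macrophage-like cells, and in 0.543% ± 0.373 of CD4 T-like cells. The LFA-1 chains came together most often in CD4 T-like cells, at 16.3% ± 1.22.

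**Figure D2:**
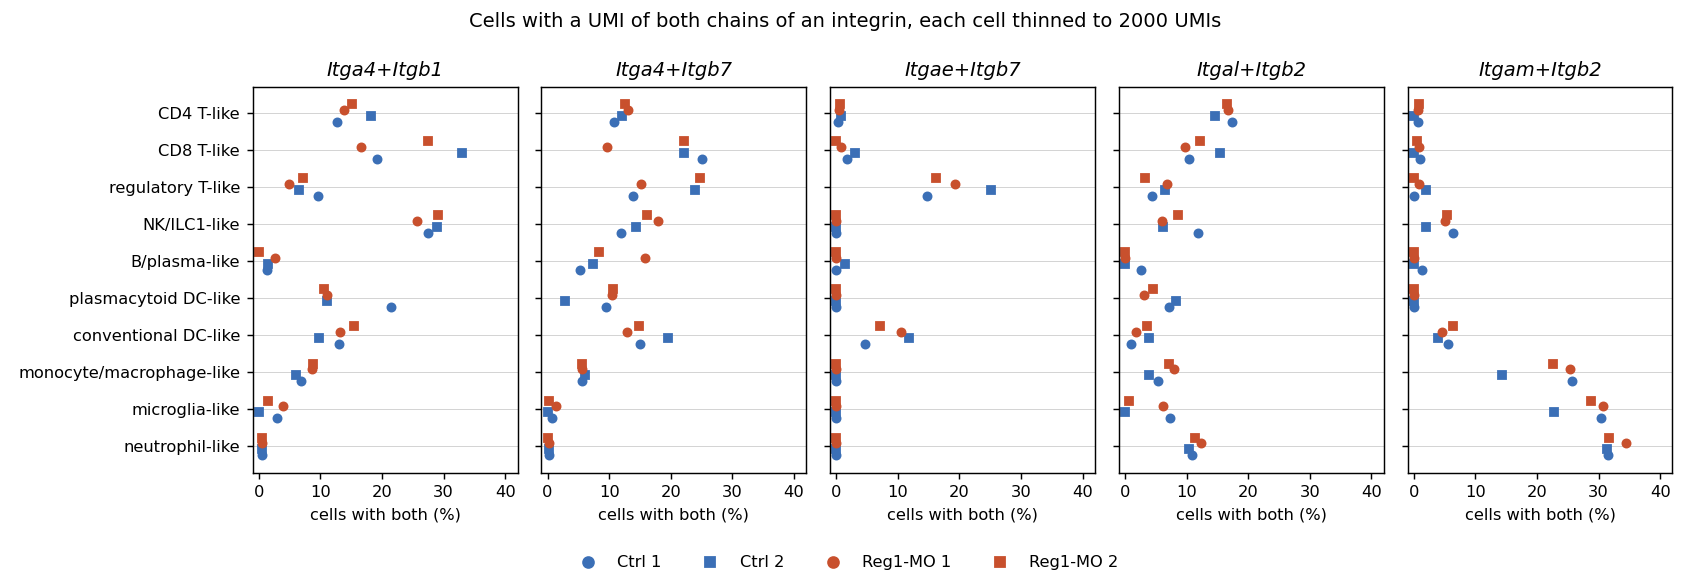
Share of cells with a UMI of both chains of an integrin (percent, each cell thinned to 2000 UMIs), by class. Points are the 4 libraries, blue for Ctrl and red for Reg1-MO. Itga4 with Itgb1 is most frequent in NK/ILC1-like and CD8 T-like cells, and Itgam with Itgb2 in neutrophil-like, microglia-like and monocyte/macrophage-like cells.

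The second question was whether Reg1-MO changed these genes within a class. None of the 10 passed in any of the 7 classes with at least 50 cells in every library, nor over all cells (edgeR quasi-likelihood test on UMIs summed per library and class, adjusted p under 0.05 over all genes). Of 68 tests of these genes, 15 had an unadjusted p under 0.05 (22.1%), against 13.6% of the tests of all genes in the same classes. With DESeq2 in its place, Icam1 and Itga4 passed in monocyte/macrophage-like cells and Icam1 over all cells. Few other genes passed either: 0.107% of the genes tested in CD4 T-like cells, 0.0718% in CD8 T-like, 0.17% in regulatory T-like, 0.215% in NK/ILC1-like, 2.13% in neutrophil-like, and 0% in conventional DC-like cells, monocyte/macrophage-like cells and all cells (1229, 2478 and 2891 genes at an unadjusted p under 0.05, and 48, 585 and 1029 called by DESeq2). The fits have limited reach with 2 libraries a group: in simulated data of the same depth, 38 to 66 of 100 genes changed 2-fold were called in a class. Over all cells 17 of 100 were called. So the values below are differences that the test did not call, unless stated.

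The alpha4 chain lay lower in both Reg1-MO libraries in CD8 T-like, NK/ILC1-like and conventional DC-like cells and higher in monocyte/macrophage-like cells (TMM-normalised CPM by library, and log2 fold change of Reg1-MO over Ctrl ± standard error). Itga4 in CD8 T-like cells was at 591 and 754 under Ctrl MO and at 258 and 501 under Reg1-MO, which is -0.83 ± 0.27 on the log2 scale (edgeR adjusted p = 0.607). Both Reg1-MO libraries were lower, Reg1-MO 1 the most, and the call depends on the libraries kept: it passed without Ctrl 1 (edgeR adjusted p = 0.0161), Ctrl 2 (-0.65, 0.0150) or Reg1-MO 2 (-1.37, 0.0239), and without Reg1-MO 1 the value was -0.42 (0.832). In NK/ILC1-like cells Itga4 was at 574 and 572 against 447 and 409 (-0.42 ± 0.14, edgeR adjusted p = 0.288), again with both Reg1-MO libraries lower. In conventional DC-like cells it was at 412 and 332 against 305 and 288 (-0.33 ± 0.18, edgeR adjusted p = 0.461). In monocyte/macrophage-like cells it was at 159 and 141 against 209 and 219 (0.52 ± 0.12, edgeR adjusted p = 0.213), with both Reg1-MO libraries higher, and it passed without Ctrl 1 (0.61, edgeR adjusted p = 0.0161). Groups that do not overlap were common here: 37.7% of all genes tested in CD8 T-like cells, 41.8% in NK/ILC1-like cells and 58.7% in monocyte/macrophage-like cells. The difference between classes was not called for Itga4 in any of the pairs of classes tested.

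The partner chain Itgb7 was higher in both Reg1-MO libraries in 3 of 4 lymphocyte classes, again without passing. Itgb7 was at 342 and 289 in the Ctrl libraries and 362 and 391 in the Reg1-MO libraries in CD4 T-like cells (0.25 ± 0.11, edgeR adjusted p = 0.382), where 47.2% of genes did not overlap. In NK/ILC1-like cells it was at 168 and 158 against 233 and 241 (0.54 ± 0.16, edgeR adjusted p = 0.247), and in regulatory T-like cells at 501 and 427 against 607 and 570 (0.34 ± 0.13, edgeR adjusted p = 0.329), where 43.2% of genes did not overlap. In conventional DC-like cells Itgb7 lay the other way, at 279 and 327 against 231 and 254 (-0.32 ± 0.18, edgeR adjusted p = 0.472; 48.6% of genes did not overlap), as it did in monocyte/macrophage-like cells, at 127 and 119 against 110 and 86.5 (-0.32 ± 0.15, edgeR adjusted p = 0.311). Itgb1 was at 352 and 377 against 479 and 476 in NK/ILC1-like cells (0.39 ± 0.14, edgeR adjusted p = 0.320). There, the 2 chains that pair with alpha4 were both higher in the Reg1-MO libraries and alpha4 itself was lower.

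Among the beta2 integrins, Itgb2 was higher in both Reg1-MO libraries in 6 of 7 classes (all but NK/ILC1-like cells), by at most 0.33 on the log2 scale. Genes higher in both Reg1-MO libraries made up 24.1% of all genes tested in CD4 T-like cells, 18.7% in CD8 T-like, 25.1% in conventional DC-like, 28.7% in monocyte/macrophage-like, 22% in neutrophil-like, 21% in NK/ILC1-like and 21.5% in regulatory T-like cells. In CD4 T-like cells it was at 225 and 220 in the Ctrl libraries and 285 and 268 in the Reg1-MO libraries (0.31 ± 0.09, edgeR adjusted p = 0.258). In monocyte/macrophage-like cells it was at 384 and 287 against 452 and 389, and there it passed without Ctrl 1 (0.55, edgeR adjusted p = 0.0414). The 7 classes share the same 4 libraries and so do not repeat the comparison 7 times. Itgal was at 59.0 and 48.2 against 69.7 and 72.6 in monocyte/macrophage-like cells (0.41 ± 0.13, edgeR adjusted p = 0.235; without Ctrl 1, 0.56 and adjusted p = 0.0168) and at 84.3 and 91.7 against 122 and 96.6 in neutrophil-like cells (0.30 ± 0.14, edgeR adjusted p = 0.323), where 47.7% of genes did not overlap. Itgam in regulatory T-like cells was at 8.94 and 8.66 CPM in the Ctrl libraries and at 15.5 and 17.5 CPM in the Reg1-MO libraries (0.92 ± 0.34, edgeR adjusted p = 0.321), a low level beside the 486 of neutrophil-like cells, and without doublet removal the difference was 0.34. Itgae in CD8 T-like cells was at 20.2 and 52.4 against 27.3 and 5.41 (-0.87 ± 0.58, edgeR adjusted p = 0.824), with overlapping groups, and it passed without Ctrl 1 (-1.49, edgeR adjusted p = 0.0383). Selplg lay between -0.04 and 0.33 and Cd44 between -0.09 and 0.29 on the log2 scale over the 7 classes. Over all cells Cd44 was at -0.37 ± 0.17 (edgeR adjusted p = 0.353).

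**Figure D3:**
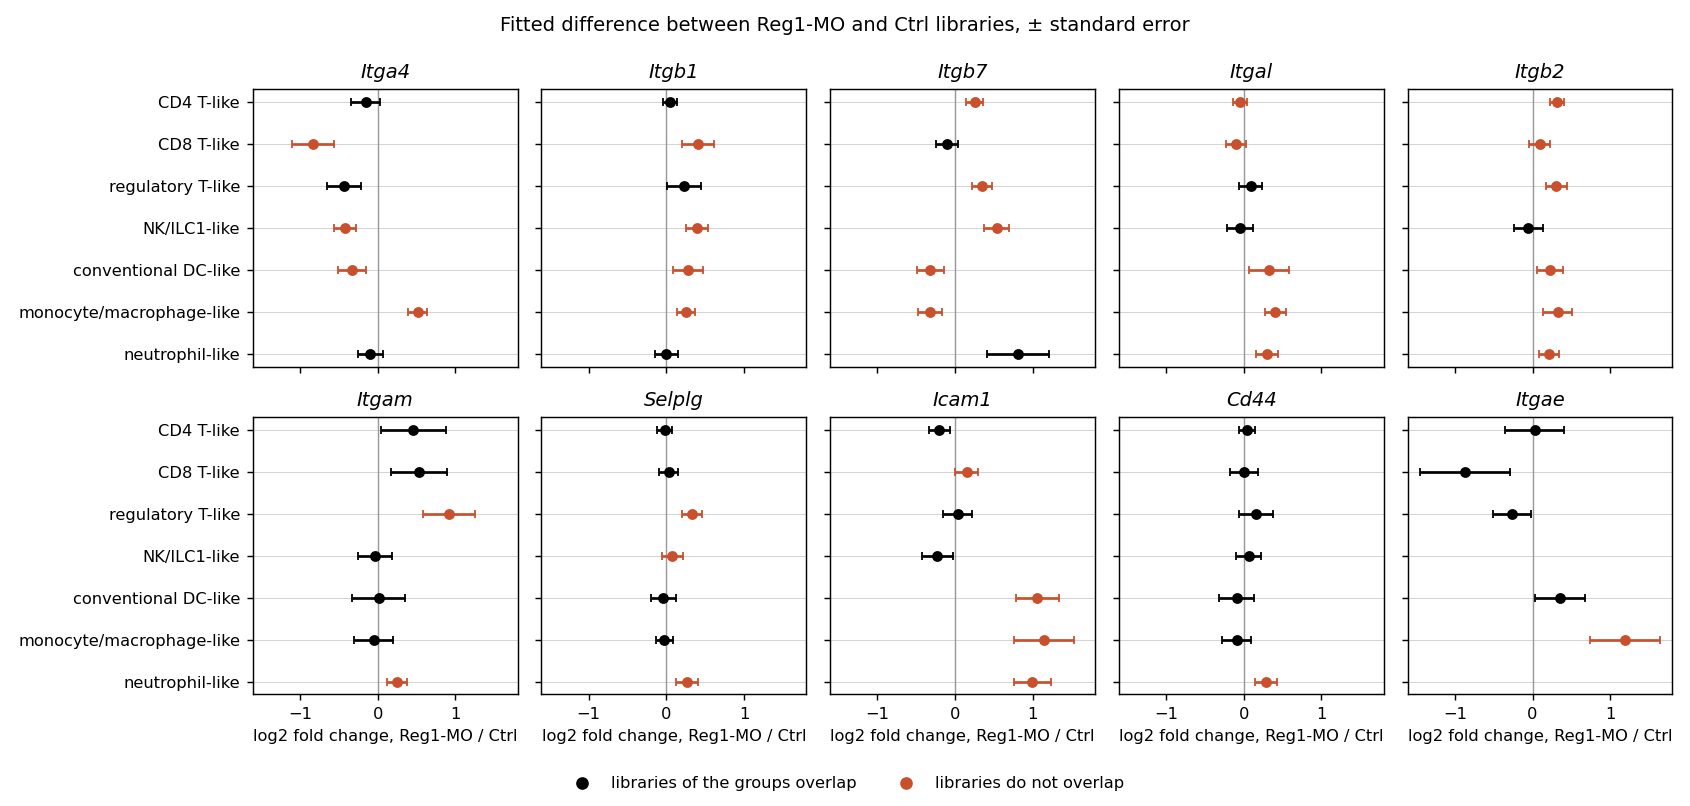
Fitted log2 fold change of Reg1-MO over Ctrl (x axis) with its standard error (bars) for each gene in the 7 tested classes, 2 libraries in each group. Red points mark genes whose libraries do not overlap between the groups. No point passed the test, and the Icam1 values of conventional DC-like, monocyte/macrophage-like and neutrophil-like cells lie near 1; the Itgae value of monocyte/macrophage-like cells rests on levels of at most 1.49 CPM.

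Icam1 was higher in both Reg1-MO libraries in the 3 myeloid classes and in CD8 T-like cells, without passing in any class. In monocyte/macrophage-like cells it was at 84.6 and 36.7 under Ctrl MO and at 135 and 133 under Reg1-MO, or 1.14 ± 0.39 on the log2 scale (edgeR adjusted p = 0.239). As ratios, the 2 Ctrl libraries differed more from each other than Ctrl 1 did from either Reg1-MO library. In conventional DC-like cells it was at 64.0 and 36.7 against 95.5 and 122 (1.06 ± 0.28, edgeR adjusted p = 0.269), and in neutrophil-like cells at 10.2 and 6.70 against 18.3 and 15.7 (0.99 ± 0.24, edgeR adjusted p = 0.0627). In lymphocytes the values lay near each other: the log2 fold change was -0.20 ± 0.14 in CD4 T-like cells, 0.15 ± 0.14 in CD8 T-like cells, -0.23 ± 0.20 in NK/ILC1-like cells and 0.03 ± 0.19 in regulatory T-like cells. Over all cells Icam1 was at 92.8 and 61.2 against 131 and 150 (0.87 ± 0.23, edgeR adjusted p = 0.220; 53.1% of genes did not overlap). In monocyte/macrophage-like cells Icam1 passed without Ctrl 1 (1.87, edgeR adjusted p = 0.000252) and without Ctrl 2 (0.66, edgeR adjusted p = 0.0482), so the size depends on which Ctrl library is kept. Without Ctrl 1 it also passed in conventional DC-like cells (1.57, edgeR adjusted p = 0.000179) and in neutrophil-like cells (1.32, 0.000429), and in the latter without Reg1-MO 1 (0.91, 0.0210) and with the replicate number as a block (1.06, 0.0343).

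Whether Icam1 differed more in one class than in another was tested with an interaction term that keeps the library as a block. In the comparison planned, monocyte/macrophage-like minus CD4 T-like cells, the difference was 1.42 ± 0.24 on the log2 scale (edgeR adjusted p = 0.115), and none of the 10 genes nor any other gene passed (0%; 0 of 13360). Without Ctrl 1 the Icam1 difference there was 1.83, and without Ctrl 2 it was 1.05. A fit without 1 library leaves 1 library in a group, so only its size is read here. All 21 pairs of classes were then tested, a choice made after seeing the data, and 3 of 209 tests of the 10 genes passed, all of Icam1. The change was larger in neutrophil-like than in CD4 T-like cells by 1.24 ± 0.21 (edgeR adjusted p = 0.00778, with 1.07% of all genes passing). It was smaller in NK/ILC1-like than in monocyte/macrophage-like cells by a log2 difference of -1.37 ± 0.23 (edgeR adjusted p = 0.00833, 0.399% of genes) and than in neutrophil-like cells by -1.18 ± 0.26 (edgeR adjusted p = 0.0232, 0.584% of genes). Leaving out each library in turn gave 1.15 to 1.33 for the first, -1.69 to -1.14 for the second and -1.41 to -1.01 for the last. The call of the first was lost without Reg1-MO 2, and that of the last without Ctrl 1, Ctrl 2 or Reg1-MO 1.

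The monocyte/macrophage-like class was not made of the same cells in each library. Cluster 3, led by Slc7a2 and Arg1, was 39.8% and 6.43% of the class in the Ctrl libraries and 62.5% and 56.2% in the Reg1-MO libraries. Cluster 5, led by Gpnmb and Saa3, was 27.7% and 63.5% against 13.5% and 7.03%. Cluster 6, led by Cxcl10 and Cxcl9, was 12.9% and 0.722% against 20.5% and 25.1%. Cluster 12, led by Vcan, was 19.5% and 29.4% against 3.53% and 11.7%. Icam1 was low in cluster 5, at 55.5, 36.0, 66.3 and 45.8 in Ctrl 1, Ctrl 2, Reg1-MO 1 and Reg1-MO 2, and higher in cluster 3, at 109, 84.7, 141 and 139. The genes were therefore fitted again within the clusters of the monocyte/macrophage-like and neutrophil-like classes that had at least 50 cells in every library, and within unnamed cluster 20, also chosen after seeing the data. Other clusters of that size were not fitted. Among them, unnamed cluster 4, led by Saa3 and Gpnmb, had Icam1 at 117 and 100.3 CPM in the Ctrl libraries and at 170 and 200.3 CPM in the Reg1-MO libraries, and unnamed cluster 16, led by Mpo and Ctsg, at 14.6 and 13.1 against 34.4 and 22.0. Within cluster 3 the log2 fold change of Icam1 was 0.50 ± 0.15 (edgeR adjusted p = 0.394; 0.0287 with the replicate number as a block) and within cluster 5 it was 0.34 ± 0.26 (edgeR adjusted p = 0.614; without Ctrl 1, 0.71 and 0.00404), both below the 1.14 of the whole class. In cluster 3 0% of genes passed in edgeR (1223 at an unadjusted p under 0.05, and 449 calls with the block), and in cluster 5 0.00897%. The part that the makeup has in the class value of Icam1 was not tested. Of the 9 adhesion genes tested in cluster 5, 7 lay below 0 and 2 above, none called (49.6% of all genes lay above 0). Cd44 had the smallest p of them, at -0.80 ± 0.23 (edgeR adjusted p = 0.255). In neutrophil cluster 9 Cd44 was at 0.29 ± 0.13 (edgeR adjusted p = 0.291).

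In cluster 12, monocytes led by Vcan, Plcb1 and F13a1, Icam1 rose: it was at 28.4 and 24.5 in the Ctrl libraries and at 57.8 and 43.7 in the Reg1-MO libraries, or 0.92 ± 0.19 on the log2 scale (edgeR adjusted p = 0.0192). The groups did not overlap, as for 26.5% of genes in that direction, and leaving out each library in turn gave 0.73 to 1.13, passing each time. Here 7.02% of all genes passed (3.95% higher and 3.07% lower), so a call was less rare than in the classes, and Icam1 was the only one of the 9 adhesion genes tested to pass. Itgb2, at 240 and 227 against 321 and 293, missed the threshold (0.39 ± 0.10, edgeR adjusted p = 0.0501) and passed without Reg1-MO 2 (0.46, 0.0321). Itga4 passed without Ctrl 1 (0.63, edgeR adjusted p = 0.0154) and without Reg1-MO 1 (0.56, 0.00521), and in the latter case Itgb1 (0.52, 0.0114) and Itgam (-0.40, 0.0433) passed too. Over all genes, leaving out 1 library gave 407 to 1256 calls in cluster 12 and the replicate block 275, against 674. The UMIs came from many cells: 84, 71, 33 and 47 cells had at least 1 Icam1 UMI in the 4 libraries, and no cell had more than 8. Summed over the 12 genes of the list, monocyte/macrophage markers were at 61628 and 66136 CPM in the Ctrl libraries and at 44007 and 39591 in the Reg1-MO libraries, none of them at 0, and the 12 neutrophil markers at 3750 and 6005 against 11260 and 517; their part in the result was not tested. Of the 6 endothelial markers, which would show vessel cells, 3 to 5 were at 0 and the sum was 31.2 and 30.7 against 51.0 and 50.6.

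In cluster 17, neutrophils led by Retnlg, Cstdc5 and Mmp9, Icam1 also rose, from 12.3 and 5.23 in the Ctrl libraries to 49.0 and 39.1 in the Reg1-MO libraries (2.34 ± 0.35, edgeR adjusted p = 0.00346; 2.06% of all genes passed). Without Ctrl 1 the value was 3.02, and it passed without each library in turn. The counts behind it are small and uneven: 38 and 23 UMIs in 17 and 14 cells of the Ctrl libraries, 28 and 59 UMIs in 10 and 16 cells of the Reg1-MO libraries, and 1 cell of Reg1-MO 2 held 21 of its 59. As a share of cells with a UMI after thinning, the groups overlapped, at 2.31% and 1.43% against 5.66% and 2.18%. Itga4 fell in the same cluster, from 26.9 and 37.8 to 12.2 and 13.3 (-1.33 ± 0.31, edgeR adjusted p = 0.0398). Itgb7 passed there without Reg1-MO 2 only (2.29, edgeR adjusted p = 0.0256), and over all genes leaving out 1 library gave 119 to 309 calls, against 141. The Itga4 call was lost without Ctrl 2 (edgeR adjusted p = 0.345) or without Reg1-MO 2 (edgeR adjusted p = 0.0656). Itga4 rested on 83 and 166 UMIs against 7 and 20, with 20 of the 83 in 1 cell. The 6 markers of migratory dendritic cells, the class with the most Itga4, summed to 55.5 and 15.3 CPM in the Ctrl libraries and to 5.03 and 1.87 in the Reg1-MO libraries, where 4 of the 6 were at 0; their part in the Itga4 result was not tested.

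Cluster 20, the Acod1 and Cxcl3 cells, had the highest Icam1 of any cluster tested, at 585 and 233 in the Ctrl libraries and 957 and 1541 in the Reg1-MO libraries (1.60 ± 0.46, edgeR adjusted p = 0.212; without Ctrl 1, 2.46 and 1.91e-07; 0.0224% of genes passed). Icam1 was in 43.4% and 19.4% of the thinned cells of the Ctrl libraries and in 67.2% and 69.5% of those of the Reg1-MO libraries. In neutrophil-like clusters 8 and 9 the Icam1 difference was -0.19 ± 0.36 and 0.67 ± 0.50, neither called (0.529% and 2.5% of genes passed). Neutrophil-like cluster 23, with 45 cells in Reg1-MO 1, was not fitted. Itga4 in cluster 20 was not called either, at 1.34 ± 0.31 on the log2 scale (edgeR adjusted p = 0.174). This is opposite in direction to its fall in the Retnlg cells above. Leaving out each library in turn gave 1.33 to 1.40. Itga4 rested on 42 and 20 UMIs in the Ctrl libraries and 27 and 35 in the Reg1-MO libraries, with 12 of the 27 in 1 cell. In conventional DC-like cells, where Icam1 was not called, the 6 markers of migratory dendritic cells summed to 188 and 52.9 in the Ctrl libraries and 273 and 457 in the Reg1-MO libraries, in the same order as Icam1; their part was not tested.

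**Figure D4:**
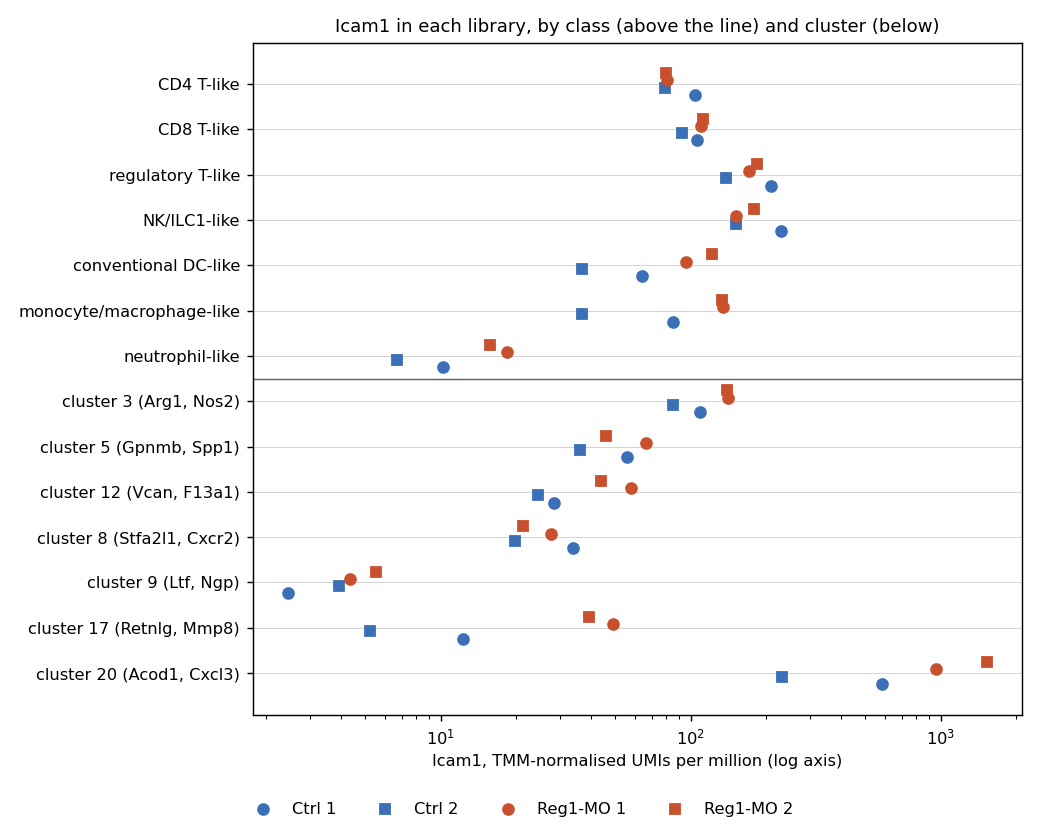
Icam1 (TMM-normalised CPM, log axis) in the 7 tested classes, above the line, and in the 7 fitted clusters, below it. The clusters belong to the monocyte/macrophage-like and neutrophil-like classes, except cluster 20, which was left unnamed. Points are libraries, blue for Ctrl and red for Reg1-MO. Of these, only clusters 12 and 17 passed the test. The groups do not overlap in the 3 myeloid classes either, and among the lymphocyte classes they overlap in all but CD8 T-like cells.

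The sequence before the Icam1 start is printed because Icam1 gave most of the calls above, and because it holds the letters of a kappaB element, the kind bound by NF-kappaB, and of a GAS element, the kind bound by STAT factors. The stretch is 250 bases before the RefSeq start, chr9:21015690-21015939 on the plus strand of GRCm38.p6, from RefSeq. Capitals mark GGAAATTCC, 153 bases before the start, and TTCNNNGAA, 42 bases before it.
Icam1 promoter: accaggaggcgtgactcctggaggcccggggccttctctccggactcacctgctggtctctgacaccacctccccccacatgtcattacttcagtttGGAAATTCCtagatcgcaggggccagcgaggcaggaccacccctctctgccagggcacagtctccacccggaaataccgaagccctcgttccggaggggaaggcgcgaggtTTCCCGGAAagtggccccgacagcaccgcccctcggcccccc
Both motifs were searched on both strands, and they do not overlap each other. GGAAATTCC stood in 0.286% and TTCNNNGAA in 7.02% of 32851 promoter windows of the same length. The first is an exact string of letters, so its share does not tell how common kappaB elements are. Nor does its absence from a window show that the window lacks a kappaB element. Windows were matched for 6 of the 10 genes, and neither motif was in those of Itga4, Itgb1, Itgb7, Itgam or Cd44. Motifs of the PU.1 type (GAGGAAG, in 10.6% of all windows) and the RUNX type (TGNGGT, in 40.1%) were searched too. The PU.1 type stood in the windows of Itgam and Cd44, and the RUNX type in those of Itga4, Itgb1 and Itgb7. Icam1 had neither of these. A match is only a run of letters and shows no binding.

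A list of 50 other adhesion genes was read in the same fits. None passed in the 7 classes or over all cells in edgeR, with 29 to 41 tested in a class. The median log2 fold change of the list lay between -0.12 in monocyte/macrophage-like cells and 0.22 in neutrophil-like cells, beside -0.01 and -0.03 over all genes tested there. The most abundant of them in monocyte/macrophage-like cells were Fn1 (fibronectin, the ligand of VLA-4), at 1387 and 1617 in the Ctrl libraries and 1024 and 1007 in the Reg1-MO libraries (-0.56 ± 0.15), and Spp1 (osteopontin, which binds integrins and CD44), at 786 and 904 against 722 and 641 (-0.31 ± 0.15). In neutrophil-like cells they were Plaur, the urokinase receptor (-0.09 ± 0.12), and Rap1b, a GTPase that activates integrins (0.23 ± 0.12). In CD4 T-like cells they were Cd47 (0.02 ± 0.11) and Rap1b (0.06 ± 0.09), and in regulatory T-like cells Itgav, an alpha chain that activates TGF-beta (-0.40 ± 0.18). Among the fitted clusters only cluster 12 gave calls, 2 higher and 4 lower of 34 tested, where 3.95% of all genes passed higher and 3.07% lower. There Jaml, a junctional adhesion molecule of leukocytes, fell from 134 and 149 to 58.7 and 64.3 (-1.19 ± 0.14, edgeR adjusted p = 0.00217), and Fn1 from 2806 and 3264 to 1288 and 821 (-1.53 ± 0.18, edgeR adjusted p = 0.00223). Plaur rose from 552 and 537 to 723 and 763 (0.45 ± 0.10, edgeR adjusted p = 0.0245). Fn1 is also one of the markers that named the class, and these calls were seen in a cluster chosen after the data.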

How the data were processed

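The authors deposited raw UMI counts per gene and barcode for 4 single-cell 3' RNA libraries (10x Genomics). The file headers name Cell Ranger 5.0.1, and the submitters' processing notes name the mm10 build. The deposited counts sum to 75472324 to 174552218 UMIs per library. Cells needed 500 UMIs, 200 genes and no more than 10% of UMIs from mitochondrial genes. Scrublet (scanpy 1.11.5) doublet scores were used to remove the top-scoring cells, a share that grows with the barcodes of a library, since its automatic threshold marked 251, 0, 421 and 1 cells. Counts were scaled to 10000 per cell and clustered by Leiden (igraph 0.11.9, resolution 1) on 40 components of 3000 variable genes, without the 10 genes. Clusters were named from marker lists by a score margin of 0.75, set after the clusters were seen. UMIs were summed per library and class and tested with edgeR 4.0.16 (R 4.3.3), quasi-likelihood, TMM, a minimum count of 10, Benjamini-Hochberg over all genes, adjusted p under 0.05. Alternatives were DESeq2 1.42.0, other scalings, filters, clusterings, a replicate block and each library left out. The fit was tested on simulated data, with 200 genes changed in each class. The genes and lists were chosen with earlier results of these data known. Named were the 10 genes, of the adhesion list up to 4 called per class or else the 2 most abundant, and the 3 most alike genes; a few genes that this rule names are not reported here. Coordinates are from GENCODE M21 on GRCm38 (10 of 10 matched). Counting intervals were not used; replicates of a group differed far beyond sampling noise. The planned comparison of microglia-like with monocyte/macrophage-like cells was not run, because Ctrl 2 held 22 microglia-like cells. The 497 cells of cluster 21 and the 362 cells of cluster 4 in Ctrl 2 were not counted there, since both clusters were left unnamed.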

Additional observations from a re-analysis of the deposited data

Results flagged for a closer look

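3 differences of the Reg1-MO effect between classes passed the interaction test, all of Icam1 and all chosen after seeing the data among 209 tests in 21 pairs of classes that share libraries and classes. The log2 fold change of Icam1 was 1.24 higher in neutrophil-like than in CD4 T-like cells. In NK/ILC1-like cells it differed by -1.37 from monocyte/macrophage-like cells and by -1.18 from neutrophil-like cells. In the 2 lymphocyte classes the 4 libraries gave 79.3 to 104 (CD4 T-like) and 152 to 231 (NK/ILC1-like) normalised CPM with overlapping groups, while the 2 myeloid classes had all Reg1-MO libraries above all Ctrl libraries. The monocyte/macrophage-like class held its clusters in different shares in each library. The Icam1 log2 fold change was 1.14 in that class and 0.50, 0.34 and 0.92 in its clusters 3, 5 and 12. The part of the makeup in these differences was not tested. Leaving out each library in turn, the difference between NK/ILC1-like and monocyte/macrophage-like cells was -1.69 to -1.14 on the log2 scale. Such a fit leaves 1 library in a group, so only its size is given. The calls of the other differences were lost without at least 1 of the libraries.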

How the results depend on the processing

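Of 484 alternative fits of 50 fold changes, 442 kept their direction and side of the threshold, 32 passed where the reported fit did not, 2 no longer passed and 8 changed sign. The 50 were the adhesion genes with the 3 smallest p-values in each class, fitted cluster and all cells, plus Icam1 whatever its p. The sign changes were all of Icam1 where it was near 0, an outcome that this choice favoured. Leaving out 1 library gave -0.38 to 0.017 in CD4 T-like, -0.49 to 0.13 in NK/ILC1-like, -0.24 to 0.35 in regulatory T-like, -0.0035 to 0.71 in cluster 5 and -0.54 to 0.24 in cluster 8 cells. Without Ctrl 1 it was 0.017 in CD4 T-like, 0.13 in NK/ILC1-like and 0.24 in cluster 8 cells. Without Ctrl 2 it was -0.24 in regulatory T-like cells. Without Reg1-MO 1 it was -0.0035 in cluster 5, and without Reg1-MO 2 it was -0.0049 in regulatory T-like and 0.04 in cluster 8 cells. With library totals alone it was -0.00105 in regulatory T-like cells. The cause was not tested.

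The number of the 10 genes called moved as follows. DESeq2 called 2 in monocyte/macrophage-like cells and 1 over all cells. Without the filter on low counts 2 passed in CD8 T-like, 1 in conventional DC-like, 2 in monocyte/macrophage-like and 1 in neutrophil-like cells. In neutrophil-like cells Icam1 made 1 call with the members left in the clustering and 1 at Leiden resolution 2. Leaving out 1 library gave 0 to 2 in CD8 T-like, 0 to 1 in conventional DC-like, 0 to 4 in monocyte/macrophage-like, 0 to 1 in neutrophil-like and 0 to 3 in regulatory T-like cells, and 0 to 5 in the planned interaction. Without Ctrl 1 the 4 in monocyte/macrophage-like cells were Icam1, Itga4, Itgal and Itgb2, and the 3 in regulatory T-like cells were Itga4, Itgae and Itgb1. Itga4 in CD8 T-like cells passed without Ctrl 1, Ctrl 2 or Reg1-MO 2.

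Counts over all genes moved more. DESeq2 called 77 in CD4 T-like, 22 in CD8 T-like, 48 in conventional DC-like, 585 in monocyte/macrophage-like, 8 in NK/ILC1-like, 50 in regulatory T-like cells and 1029 over all cells. Without the filter the counts were 622, 185, 643, 2144, 121, 419 and 215, and 752 in neutrophil-like cells. Without doublet removal they were 5 in CD4 T-like, 3 in CD8 T-like and 92 in neutrophil-like cells. Clustering with the members gave 607 in neutrophil-like, 29 in NK/ILC1-like and 3 in regulatory T-like cells. In regulatory T-like cells RLE size factors gave 45, library totals 9, at most 5% mitochondrial UMIs 6 and leaving out shared barcodes 6; over all cells the 5% limit gave 1. Leaving out 1 library gave 1 to 52 in CD4 T-like, 20 to 202 in CD8 T-like, 48 to 1269 in conventional DC-like, 0 to 2482 in monocyte/macrophage-like, 135 to 860 in neutrophil-like, 50 to 244 in NK/ILC1-like, 23 to 405 in regulatory T-like cells and 0 to 37 over all cells; an arm with 1 library is assumed to vary like the other.

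With the replicate number as a block, Icam1 passed in neutrophil-like cells (1 gene of the 10; log2 fold change 1.06, edgeR adjusted p = 0.0343) and in cluster 3 (0.52, edgeR adjusted p = 0.0287), 126 genes passed in regulatory T-like cells and 31 over all cells. Same-numbered libraries did not deviate together in the classes (correlations of -0.04 to 0.04, and 0.28 over all cells), so the numbers were not taken to pair the libraries. Clustering with the members gave no conventional DC-like class to test. Thinning moved 99 of 100 shares, and levels moved in 3 of 100 cases with the members in the clustering and in 14 of 100 as a mean over cells. Depth limits Itgae outside dendritic and regulatory T-like cells, and Icam1, Itga4 and Itgb7 in neutrophil-like cells.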
